A study of Homo sapiens with 18 samples.

Results

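Peaks of open chromatin were examined at 6 genes reported from association studies of neuroblastoma, LMO1, BARD1, SOX4, CASC15, HACE1 and LIN28B. The members were all peaks, in 18 lists on hg19 coordinates, within 50 kb of the bodies of the first 4 genes or inside chr6:104900000-105600000, which holds HACE1 and LIN28B. These 5 windows held 627 of the 781454 peaks of the 18 lists, from 8 in replicate 1 of Kelly shAhR-1 to 72 in replicate 3 of BE2C shAhR-2. Merged over all lists (an overlap of at least 1 bp), they formed 113 of 150322 regions. Of these, 12 lay at LMO1, 19 at BARD1, 6 at SOX4, 33 at CASC15, 1 in the overlap of the SOX4 and CASC15 windows and 42 in the HACE1 and LIN28B interval.

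The libraries were ATAC-seq, in which a transposase cuts accessible DNA, from Kelly and BE2C, established human neuroblastoma lines with MYCN amplification. Cells of each line carried a lentiviral hairpin against AHR, named shAhR-2 or shAhR-1, or the empty lentiviral vector pLKO. AHR encodes the aryl hydrocarbon receptor, a ligand-activated transcription factor. There were 6 groups of 3 libraries, namely Kelly shAhR-2, Kelly shAhR-1, Kelly pLKO, BE2C shAhR-2, BE2C shAhR-1 and BE2C pLKO. Each line was a single established line, and all libraries came from transduced cells. The labels name no separate cultures for the replicates. The p-values therefore cover the spread among these libraries alone, and it may be technical.

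Inherited risk of neuroblastoma is spread over common variants with small effects, many of them in non-coding DNA near genes of sympathoadrenal development, repair and growth control. LMO1 is a LIM-domain co-regulator that joins transcription factor complexes of adrenergic neuroblastoma cells, and SOX4 is an HMG-box transcription factor of neural progenitors. CASC15 is a long non-coding RNA gene next to SOX4, BARD1 is the RING-domain partner of BRCA1 in DNA repair, HACE1 is a HECT-domain ubiquitin ligase known as a tumour suppressor, and LIN28B binds RNA and blocks maturation of the let-7 microRNAs, which restrain MYCN.

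The lists differed widely in length. They held between 60457 and 65740 peaks with Kelly shAhR-2, 9204 and 24424 with Kelly shAhR-1, 19984 and 34848 with Kelly pLKO, 75798 and 81637 with BE2C shAhR-2, 25660 and 45023 with BE2C shAhR-1, and 34343 and 44397 with BE2C pLKO. The genome-wide background, a stand-in for depth given in overlapping reads per position, lay between 0.601 and 4.42. It was highest with shAhR-2 in both lines, and the part of depth in differences of summit reads was not tested. Replicate 1 of Kelly shAhR-1 stood apart, with the shortest list and the lowest background of all 18. Kelly calls of regions are therefore also given without it, as are peak-number tests for CASC15 and, with shAhR-2, the HACE1 and LIN28B interval. A longer list can hold more peaks at a locus, so lists were compared at equal length. These were the strongest 9204 peaks of each library in Kelly and in tests of the 2 lines, and the strongest 25660 in BE2C. A missing peak means that no peak passed the caller, not that the site was closed.

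Regions with a peak in every library lay over the start of BARD1 and upstream of LIN28B. The latter lay near the distances from the LIN28B start at which RefSeq places the HACE1 start and another LIN28B start. Other regions found in every library, inside CASC15 and past the end of LIN28B, lay at none of these starts. The sequences of 4 promoters are therefore shown, with LIN28B start 2 included as the start from which distances were taken. They are RefSeq promoters of GRCh38.p14, 250 bases upstream of each start, in the direction of transcription. Capitals mark the 3 motifs searched on both strands, GCGTG (the core of the element bound by AhR), CACGTG (the E-box bound by MYC proteins) and GATAA (the GATA motif), and no base belonged to more than 1 motif. HACE1 and LIN28B have 2 listed starts each, of which start 2 is the downstream one. The promoter of HACE1 start 2 is not printed.
BARD1, chr2:214809684-214809933, minus strand: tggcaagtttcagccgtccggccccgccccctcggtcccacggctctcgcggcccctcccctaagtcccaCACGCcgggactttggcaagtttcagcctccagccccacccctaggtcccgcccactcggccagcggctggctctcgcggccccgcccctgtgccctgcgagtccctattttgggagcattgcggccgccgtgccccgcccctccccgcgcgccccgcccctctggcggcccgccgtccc
HACE1 start 1, chr6:104859920-104860169, minus strand: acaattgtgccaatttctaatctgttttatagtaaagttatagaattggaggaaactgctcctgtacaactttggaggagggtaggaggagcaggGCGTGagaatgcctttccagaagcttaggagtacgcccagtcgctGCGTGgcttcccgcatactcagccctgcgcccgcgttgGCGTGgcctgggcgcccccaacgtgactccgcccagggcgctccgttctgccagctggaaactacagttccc
LIN28B start 1, chr6:104940715-104940964, plus strand: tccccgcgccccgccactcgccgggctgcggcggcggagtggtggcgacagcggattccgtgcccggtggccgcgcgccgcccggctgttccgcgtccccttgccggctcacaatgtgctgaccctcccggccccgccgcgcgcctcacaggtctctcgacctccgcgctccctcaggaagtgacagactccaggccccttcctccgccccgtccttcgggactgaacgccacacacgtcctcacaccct
LIN28B start 2, chr6:104956857-104957106, plus strand: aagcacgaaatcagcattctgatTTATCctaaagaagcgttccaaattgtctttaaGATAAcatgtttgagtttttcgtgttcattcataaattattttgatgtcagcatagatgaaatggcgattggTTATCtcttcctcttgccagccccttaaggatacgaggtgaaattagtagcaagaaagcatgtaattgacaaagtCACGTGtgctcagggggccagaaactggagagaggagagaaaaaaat

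All 6 members matched the promoter table by symbol, with 8 starts. GCGTG occurred 1 time in the BARD1 promoter, 3 times in that of HACE1 start 1 and 0 times in that of HACE1 start 2. It was found in 4 of the 8 member promoters, against 32.2% of 35116 promoters. CACGTG was found in LIN28B start 2 and in no other member promoter, against 6.34% of all promoters. GATAA was found 3 times in LIN28B start 2 and 1 time in SOX4, against 20.4% of all promoters. The LIN28B starts differed in base composition, with 73.6% G and C at start 1 and 38.4% at start 2, against a median of 58% over all promoters. These counts describe the printed windows only and say nothing of binding.

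The 5 loci differed in how densely they were covered. Over the 18 libraries the median density was 48.5 peaks per Mb at LMO1, 28.6 at SOX4, 12.9 in the HACE1 and LIN28B interval, 11.9 at CASC15 and 11.0 at BARD1, against 11.8 genome-wide. LMO1 and SOX4 were above the genome-wide density of the same library in 17 of 18 libraries each, and both had no peak in replicate 1 of Kelly shAhR-1. The HACE1 and LIN28B interval was above it in 15 libraries, CASC15 in 10 and BARD1 in 8. Windows chosen around genes were not compared with other gene windows, so no density is called particular to these loci.

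**Figure D1:**
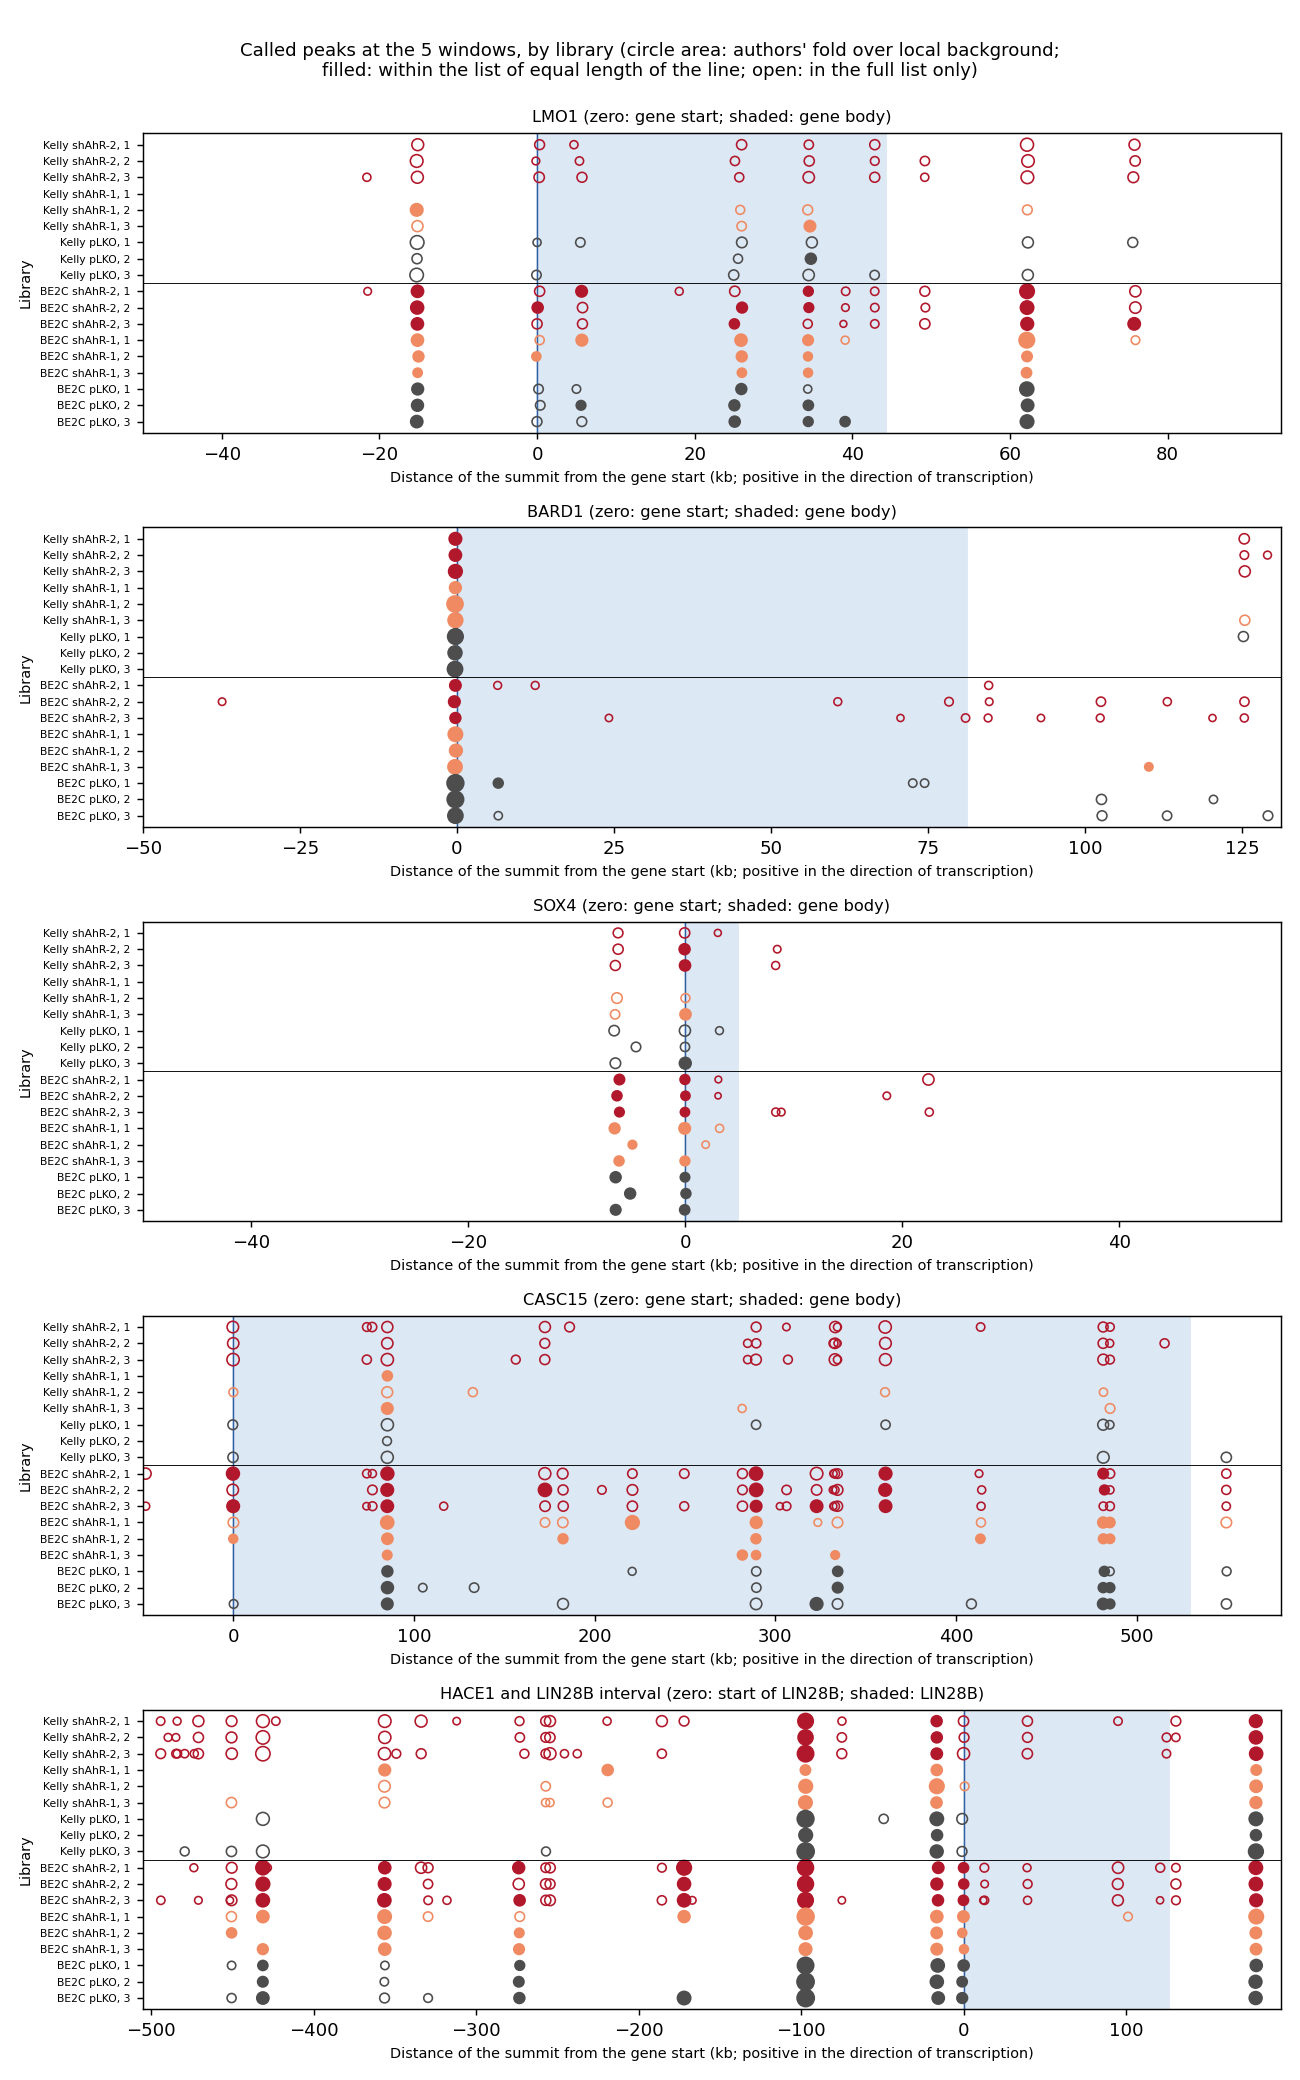
Called peaks in the 5 windows by library. The x axis is the distance of the summit from the gene start in kb, each row is 1 library, the circle area is the authors' fold over local background, and filled circles are peaks within the list of equal length of the line. Circles run through all rows at the BARD1 start, at the region 85.2 kb inside CASC15, and at the regions 97.2 and 16.4 kb upstream and 179.9 kb downstream of the LIN28B start.

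Most member regions were seen in few libraries. Of the 113 regions, 5 (4.42%) had a peak in all 18 lists, against 4.22% of all regions, and 39 (34.5%) in 1 list, against 37.6%. The regions in 1 list were short, with a median length of 246 bp and a median fold over background of 3.37. Those in all lists had a median length of 1453 bp and a median fold of 8.23. There were 59 regions in the bodies of LMO1, BARD1, SOX4, CASC15 and LIN28B, with the body of HACE1 not counted. Lists of shAhR-2 alone, the longest of both lines, held 54 regions (47.8%), against 50.6% of all regions.

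BARD1 had 1 region with a peak in all 18 lists, and it spans the gene start, chr2:215673480-215675158. Its summit held 225, 214 and 254 overlapping reads with Kelly shAhR-2, 21, 105 and 99 with Kelly shAhR-1, and 269, 95 and 182 with Kelly pLKO. In BE2C it held 393, 438 and 409 with shAhR-2, 302, 150 and 102 with shAhR-1, and 242 and 290 in replicates 1 and 2 of pLKO, and could not be solved in replicate 3. Divided by the genome-wide background of each library, it stood at 77.2, 74.4 and 99.3 with Kelly shAhR-2, 34.9, 83.0 and 69.3 with Kelly shAhR-1, and 151.7, 49.5 and 144.7 with Kelly pLKO, so the Kelly groups overlapped. The same ratio in BE2C was 115.7, 123.5 and 92.5 with shAhR-2, then 183.8, 85.9 and 72.3 with shAhR-1, against 160.1 and 194.0 in the 2 solved pLKO libraries. In BE2C the shAhR-2 libraries therefore lay above both pLKO libraries in reads and below both in the ratio. No share of all regions with this pattern was determined. Its rank by strength in a list was between 57 and 1033, within the top 0.128% to 11.2%, and the fold lay between 5.95 and 14.4. The other 18 BARD1 regions were found in at most 7 lists. The 9 of them inside the gene body had a peak in BE2C lists alone, 8 of them in 1 list each. The share of all regions found in BE2C lists alone was not determined. BE2C lists were longer than Kelly lists in the group means, so this count is not read as a trait of BARD1.

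HACE1 and LIN28B shared the longest window, with 3 regions found in all 18 lists, against at most 1 at any other locus. The strongest, chr6:105306919-105308093, lay 97.2 kb upstream of the LIN28B start given by the rule. Its fold was between 5.39 and 15.2. In RefSeq on GRCh38.p14, HACE1 start 1 lies 97.2 kb and HACE1 start 2 97.6 kb upstream of LIN28B start 2. The former is the same distance within another build, and hg19 annotations are known to place the HACE1 start there. No position was converted between builds, so this is a match of distances only. Summit reads were 178, 151 and 170 with Kelly shAhR-2, 9, 29 and 35 with Kelly shAhR-1, 143, 38 and 91 with Kelly pLKO, 178, 201 and 195 with BE2C shAhR-2, 74, 29 and 22 with BE2C shAhR-1, and 54, 68 and 96 with BE2C pLKO. Divided by the genome-wide background of each library, they were 14.98, 22.9 and 24.5 with Kelly shAhR-1 and 80.7, 19.8 and 72.4 with Kelly pLKO, so the groups overlapped. In BE2C the ratios were 45.0, 16.6 and 15.6 with shAhR-1 and 35.7, 45.5 and 51.7 with pLKO, which also overlapped.

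The region chr6:105388108-105389868 lay 16.4 kb upstream of the LIN28B start and had a peak in all 18 lists, with a fold between 6.04 and 10.8. RefSeq places LIN28B start 1 16.1 kb upstream of start 2 on GRCh38.p14. The region over the LIN28B start of the rule, chr6:105403592-105407232, had a peak in 15 lists and was absent from replicates 1 and 3 of Kelly shAhR-1 and replicate 2 of Kelly pLKO. Its summit held 65, 48 and 72 reads with Kelly shAhR-2, 9 in the 1 shAhR-1 list that had it, and 26 and 17 in 2 Kelly pLKO lists. In BE2C it held 62, 64 and 86 with shAhR-2, 25, 16 and 10 with shAhR-1, and 18, 16 and 32 with pLKO. In each of the 15 libraries that had both, the summit 16.4 kb upstream held more reads than the summit over the start of the rule. The third region in all lists, chr6:105584165-105585617, lay past the end of LIN28B, whose next named neighbour in RefSeq is POPDC1, a membrane protein gene of muscle and epithelia.

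**Figure D2:**
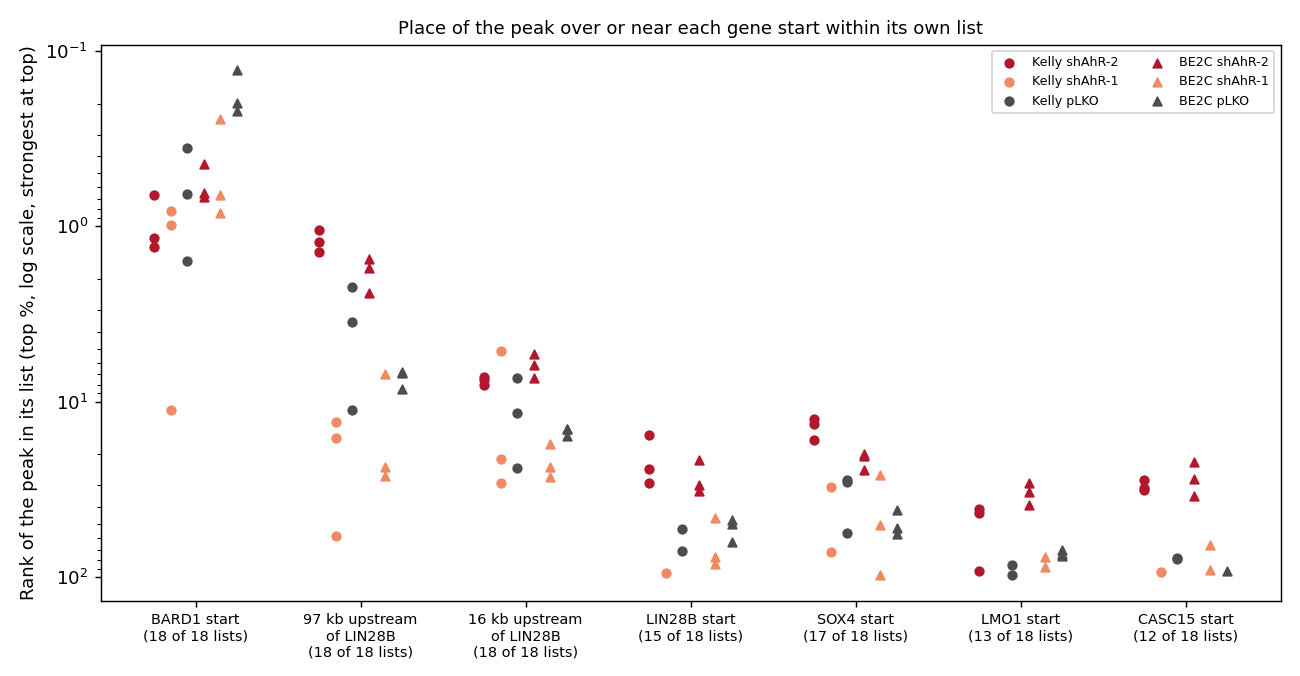
Place of each peak within its own list, as the top percentage of peaks by strength on a log axis with the strongest at the top, for the gene starts and the 2 regions upstream of LIN28B. Each point is 1 library, and libraries with no peak are not drawn. The BARD1 start is within the top 11.2% of every list, while the LMO1 and CASC15 starts lie at or below the strongest 22.2% of the lists that hold them.

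SOX4 had 2 regions in 17 of 18 lists. The region over the start, chr6:21593603-21596215, held 99, 87 and 96 summit reads with Kelly shAhR-2, 17 and 28 in the 2 Kelly shAhR-1 lists with a peak, and 61, 25 and 45 with Kelly pLKO. In BE2C it held 111, 100 and 116 with shAhR-2, 52, 15 and 21 with shAhR-1, and 22, 26 and 45 with pLKO. The shAhR-2 values lay above all others of their line, as did the backgrounds of those libraries. Ratios to the background were 34.0, 30.2 and 37.5 with Kelly shAhR-2 against 34.4, 13.03 and 35.8 with Kelly pLKO, and overlapped. In BE2C they were 32.7, 28.2 and 26.2 with shAhR-2, then 31.6, 8.59 and 14.9 with shAhR-1, against 14.6, 17.4 and 24.2 with pLKO. The BE2C shAhR-2 ratios lay above the pLKO ratios, and the shAhR-1 ratios overlapped them. How many of all regions show such a separation was not determined. The companion region, chr6:21587176-21589717, lay 6.30 kb upstream of the start with a fold between 3.76 and 6.05. In both regions the missing list was replicate 1 of Kelly shAhR-1.

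LMO1 had its most frequent regions away from its start. The start region, chr11:8289606-8290835, had a peak in 13 lists and in none with Kelly shAhR-1. Peaks in 17 lists, all but replicate 1 of Kelly shAhR-1, were found in 3 regions. They lay 15.2 kb upstream of the start (chr11:8304394-8306151), 25.8 kb inside the gene (chr11:8263578-8265489) and 34.4 kb inside the gene (chr11:8254946-8256376). Summit reads 15.2 kb upstream were 36, 32 and 26 with Kelly shAhR-2, 17 and 17 with Kelly shAhR-1, 33, 14 and 24 with Kelly pLKO, 78, 87 and 89 with BE2C shAhR-2, 29, 18 and 10 with BE2C shAhR-1, and 21, 24 and 34 with BE2C pLKO. Ratios to the genome-wide background were 10.2 to 12.35 with Kelly shAhR-2 against 7.29 to 19.1 with Kelly pLKO, and overlapped. In BE2C they were 20.1 to 24.5 with shAhR-2 against 13.9 to 18.3 with pLKO. The share of all regions with such a separation was not determined. A region past the gene's end, chr11:8227515-8228954, 62.2 kb from the start, was found in 15 lists, 6 of Kelly and 9 of BE2C, with a fold between 4.86 and 12.2. No annotation of hg19 was used here, so exons and introns are not told apart.

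CASC15 carried 33 regions, 32 of them inside its long gene body. One, chr6:21749893-21751303, 85.2 kb inside the gene, had a peak in all 18 lists with a fold between 3.94 and 8.71. The start region, chr6:21664412-21666072, had one in 12 lists, among them all 6 shAhR-2 lists. Its summit held 36, 30 and 33 reads with Kelly shAhR-2, 8 in 1 list with Kelly shAhR-1, 13 and 11 in 2 lists with Kelly pLKO, 47, 39 and 56 with BE2C shAhR-2, 14 and 10 in 2 lists with BE2C shAhR-1, and 10 in 1 list with BE2C pLKO. NBAT1, another long non-coding RNA gene known from neuroblastoma, lies inside the CASC15 body in RefSeq, and its own start was not placed on hg19 here.

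The lines did not differ past the threshold at any member region. At equal length 0 of 11 member regions were called between Kelly and BE2C (two-sided Fisher's exact test on the number of libraries with a peak, 9 against 9, Benjamini-Hochberg over 19922 regions), against 4.62% of all regions, and 1 had an unadjusted p under 0.05. That region was chr6:105584165-105585617, within the strongest 9204 peaks in 9 Kelly libraries and 4 BE2C libraries (adjusted p = 0.253, Fisher's exact test). In the full lists 0 of 113 were called, against 1.39% of all regions, and 7 had an unadjusted p under 0.05. Among full-list peaks with a −log10 q of at least 5, 0 of 60 were called, against 1.79%, and 3 had an unadjusted p under 0.05. The lowest adjusted p of the full lists was that of chr6:105130858-105132163, 273 kb upstream of the LIN28B start, with a peak in 2 Kelly lists, both of shAhR-2, and all 9 BE2C lists (Fisher's exact p = 0.00226, adjusted p = 0.0932). It was called higher in BE2C without replicate 1 or without replicate 2 of Kelly shAhR-2, the 2 Kelly lists that held it. That was 1 of 111 member regions each time, against 2365 of 143708 and 2227 of 142789 regions called genome-wide. Its summit reads were 16 and 16 in those Kelly lists, and in BE2C 45, 42 and 50 with shAhR-2, 12, 14 and 13 with shAhR-1, and 11, 15 and 21 with pLKO. The CASC15 region chr6:21847032-21847836, 182 kb inside the gene, had a peak in 0 Kelly and 6 BE2C lists (Fisher's exact p = 0.00905, adjusted p = 0.220). At a −log10 q of at least 5, the CASC15 region chr6:21999096-21999778, 334 kb inside the gene, had a peak in 0 Kelly and 7 BE2C lists (Fisher's exact p = 0.00226, adjusted p = 0.0689). Without that limit it had a peak in 3 Kelly lists, all of shAhR-2, with 11 to 15 summit reads, and in 7 BE2C lists. BE2C lists were longer than Kelly lists of the same condition in the group means, and the part of list length in these full-list values was not tested.

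With a hairpin against AHR, few member regions were gained or lost at equal length. A region was gained where all hairpin libraries and no pLKO library had a peak, and lost in the reverse case. With 3 libraries against 3, no p under 0.1 is possible, so shares of all regions stand beside the counts. In Kelly 0 of 10 member regions were gained or lost with shAhR-2, against 2.84% gained and 2.9% lost genome-wide, and 0 with shAhR-1, against 1.33% and 1.61%. With both hairpins together 0 changed in Kelly, against 0.233% and 0.519%. In BE2C 3 of 36 member regions were gained and 0 lost with shAhR-2, against 3.59% and 3.19% genome-wide. With shAhR-1 2 were gained and 0 lost, against 1.36% and 1.68%, and the same 2 were gained with both hairpins together, against 0.466% and 0.997%. Among 10 or 36 member regions, 0 lost is close to these genome-wide shares, so no direction is read from it. The hairpins share their pLKO libraries within a line.

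The region gained with both hairpins in BE2C in the HACE1 and LIN28B interval, chr6:105048137-105049788, lay 356 kb upstream of the LIN28B start. Its summit held 67, 63 and 88 reads with BE2C shAhR-2, and 33, 33 and 17 with BE2C shAhR-1, against 8, 8 and 14 with BE2C pLKO. All 6 hairpin values were above all 3 pLKO values. The ratio to the genome-wide background was 19.7, 17.8 and 19.9 for shAhR-2 libraries and 20.1, 18.9 and 12.05 for shAhR-1 libraries, against 5.29, 5.35 and 7.54 with pLKO, and again did not overlap. How often the reads or ratios of all regions separate in this way was not determined. The backgrounds themselves were 1.41 to 1.75 reads with shAhR-1 and 1.5 to 1.86 with pLKO. In the full BE2C lists the peak was called in all 9 libraries, so the gain there is one of rank within the strongest 25660 peaks. The call held in 9 of 9 fits that left out 1 BE2C library. Only the fit without replicate 3 of BE2C shAhR-1, the shortest BE2C list, changed the list length. The other fits could hardly end a call that needs all hairpin libraries and no pLKO library. The call ended under a rule that the peak take up 50% or more of the region, which 5 of 6 hairpin libraries met.

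The same region was present in all 6 hairpin lists and in none of the 3 pLKO lists of Kelly. Its summit held 66, 57 and 49 reads with Kelly shAhR-2 and 10, 18 and 19 with Kelly shAhR-1, and no peak was called with Kelly pLKO, whose lists reached down to summits of 8, 9 and 7 reads. It was the only 1 of 74 member regions gained in the full Kelly lists with both hairpins, against 0.0407% of all regions, and the only 1 gained with shAhR-1, against 0.0764%. At the equal length of 9204 it was within the list of 1 hairpin library, so it was not called there. Without replicate 1 of Kelly shAhR-1 the lists of equal length held 19984 peaks, and it was gained with both hairpins (1 of 21 member regions, against 0.638% of all regions). In that setting shAhR-2 gained 2 member regions, against 4.08%, and lost 2, against 3.43%, and shAhR-1 gained 1, against 3.3%, and lost 0, against 2.07%. Both hairpins together lost 0, against 0.786%. The other regions were, with shAhR-2, a gain past the end of LMO1 (chr11:8227603-8228567) and losses inside LMO1 (chr11:8263850-8265427) and CASC15 (chr6:21749893-21750450). These losses were of rank within the strongest 19984 peaks. The full-list regions spanning them had a peak in all 3 Kelly shAhR-2 and all 3 Kelly pLKO lists. Summit reads in LMO1 were 18 to 27 with shAhR-2 against 13 to 26 with pLKO. In CASC15 they were 25 to 28 against 11 to 21. Ratios to the genome-wide background overlapped between the groups at both. The gain was likewise of rank, as 2 Kelly pLKO full lists had a peak there. The members and the settings were chosen with earlier results known, so the region gained with both hairpins is described and not tested.

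**Figure D3:**
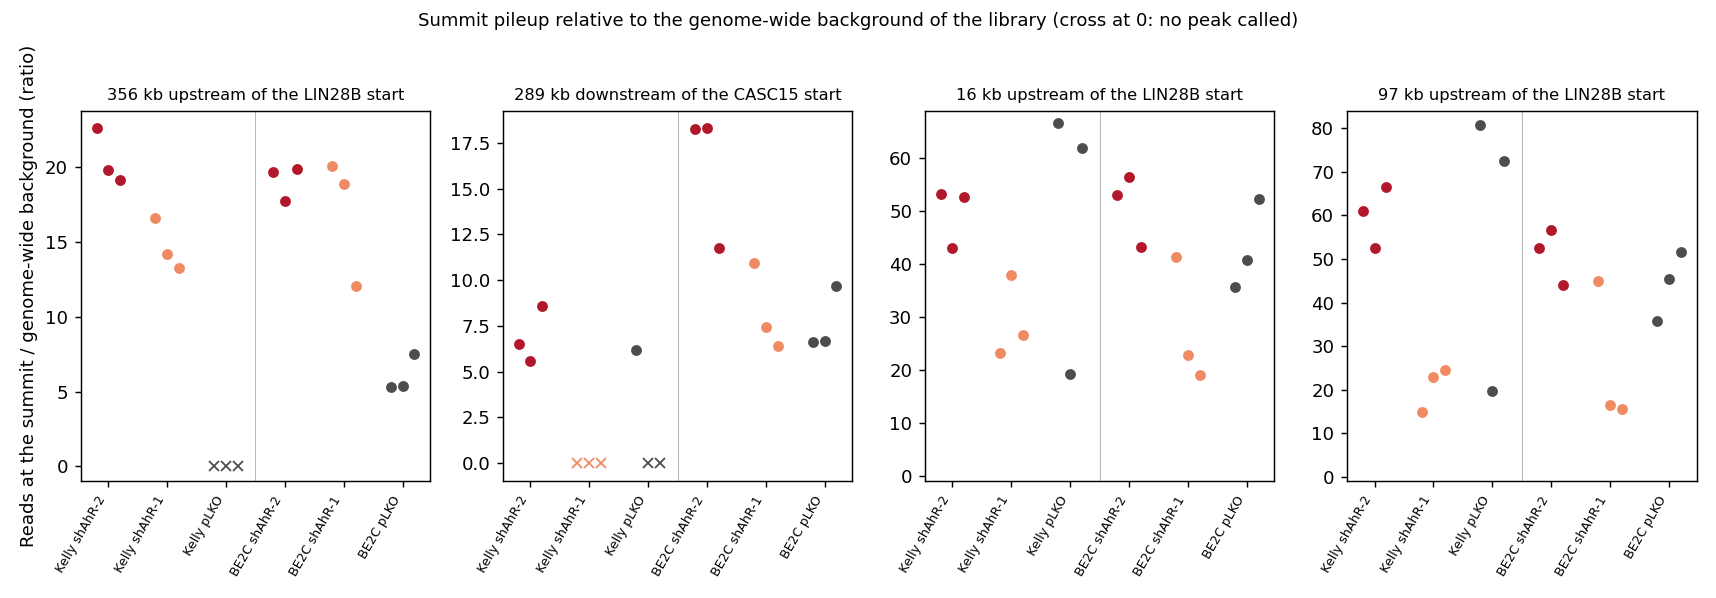
Reads at the summit divided by the genome-wide background of the library, for 4 regions. Each point is 1 library and a cross at 0 marks a library with no called peak. At the region 356 kb upstream of the LIN28B start, every BE2C hairpin library lies above every BE2C pLKO library and no Kelly pLKO library had a called peak, so those 3 have no value, while at the 2 regions nearer to LIN28B the hairpin and pLKO values overlap. The share of all regions with such a separation was not determined.

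CASC15 held the other gained regions of BE2C. The region chr6:21953868-21954960, 289 kb inside the gene, held 62, 65 and 52 summit reads with BE2C shAhR-2 and 18, 13 and 9 with BE2C shAhR-1, against 10, 10 and 18 with BE2C pLKO. It was gained with both hairpins by rank, but the shAhR-1 and pLKO values overlapped. Its peak in replicate 3 of pLKO ranked 25743, just outside the strongest 25660. The call held in 8 of 9 fits that left out a library and ended without replicate 3 of BE2C shAhR-1. That was the only fit that changed the list length, and the others could hardly end the call. In Kelly it had a peak in the 3 shAhR-2 lists and 1 pLKO list. The region chr6:22025457-22026611, 361 kb inside the gene, was gained with shAhR-2 alone. It held 47, 47 and 49 reads with BE2C shAhR-2 and had no peak in any other BE2C list. In Kelly it held 34, 26 and 26 reads with shAhR-2, 8 in 1 shAhR-1 list and 11 in 1 pLKO list.

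The full lists gave more gains with shAhR-2, at shares near those of the whole genome. In Kelly 8 of 74 member regions were gained, 10.8% against 12.1% of all regions. In BE2C 16 of 96 were gained, 16.7% against 13.5% of all regions. No member region was lost with shAhR-2 in the full lists of either line, against 0.217% of regions in Kelly and 0.16% in BE2C. With shAhR-1 and with both hairpins no member region was lost in Kelly, against 0.908% and 0.0952%. In BE2C none was gained, against 0.147% and 0.121%, and none lost, against 0.78% and 0.116%. One region, chr6:105443926-105444504, 39.3 kb inside LIN28B, had a peak in all 6 shAhR-2 lists and in none of the other 12, as did 1.18% of all regions. Its summit held between 13 and 19 reads, with a fold between 3.19 and 5.34.

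In the group means the number of peaks per locus was highest in the full lists with shAhR-2, the longest of each line. In the full lists the HACE1 and LIN28B interval held 24, 18 and 25 peaks with Kelly shAhR-2, 6, 7 and 8 with Kelly shAhR-1, and 8, 3 and 9 with Kelly pLKO. In BE2C it held 22, 17 and 25 with shAhR-2, 11, 7 and 8 with shAhR-1, and 9, 9 and 11 with pLKO. CASC15 held 14, 12 and 15 with Kelly shAhR-2, 1, 6 and 3 with Kelly shAhR-1, 6, 1 and 4 with Kelly pLKO, 20, 20 and 24 with BE2C shAhR-2, 13, 7 and 4 with BE2C shAhR-1, and 8, 7 and 10 with BE2C pLKO. Peak numbers rose with shAhR-2 at 3 of 5 loci in an exact, two-sided permutation test that exchanged labels within a line, adjusted over 12164 loci and tiles of 200 kb, against 70.8% of all of them. The differences in log2(number + 1) were 1.55 at CASC15, 1.38 in the HACE1 and LIN28B interval and 0.68 at LMO1 (exact p = 0.005, the smallest possible, adjusted p = 0.0123 each), against a median of 0.88 over all loci and tiles. They were 0.58 at BARD1 (exact permutation test, adjusted p = 0.0616) and 0.40 at SOX4 (adjusted p = 0.0647, exact permutation test), which did not pass. In Kelly every shAhR-2 library was above every pLKO library at LMO1, CASC15 and the HACE1 and LIN28B interval, as in 56.9% of loci and tiles. In BE2C that held at the same loci and at SOX4, as in 68% of loci and tiles.

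At equal length no locus passed the test, and with all 18 libraries none could. Too few of all loci and tiles had a low p for the smallest possible p of 0.005 to pass the adjustment. The difference from the full lists is therefore not read as a loss of the change. The HACE1 and LIN28B interval then held 3, 3 and 3 peaks with Kelly shAhR-2, 6, 3 and 3 with Kelly shAhR-1, and 3, 3 and 3 with Kelly pLKO. In BE2C it held 8, 7 and 8 with shAhR-2, 7, 7 and 8 with shAhR-1, and 6, 6 and 7 with pLKO. Peak numbers passed the exact permutation test at 0 of 5 loci with either hairpin, against 0% of 6870 loci and tiles with shAhR-2 and 0% of 6816 with shAhR-1. At an unadjusted exact p under 0.05, 0 of 5 loci were higher or lower with either hairpin, against 2.87% higher and 3.76% lower genome-wide with shAhR-2, and 1.07% higher and 2.48% lower with shAhR-1. CASC15 stood at 0.19 on the log2 scale with shAhR-2 (exact permutation p = 0.1, adjusted p = 0.453) and 0.54 with shAhR-1 (exact permutation p = 0.06, adjusted p = 0.896). Without replicate 1 of Kelly shAhR-1, which lengthens the equal Kelly lists to 19984 peaks, CASC15 stood at 0.28 with shAhR-2 (exact permutation p = 0.05, adjusted p = 0.334) and at 0.16 with shAhR-1 (exact permutation p = 0.55, adjusted p = 1). In that setting the HACE1 and LIN28B interval stood at 0.44 with shAhR-2 (exact permutation p = 0.01, adjusted p = 0.235), against 0.12 with all 18 libraries, and 0 of 5 loci passed with either hairpin. Genome-wide shares at an unadjusted p under 0.05 were not determined in that setting. In BE2C at equal length CASC15 held 5, 5 and 5 peaks in the shAhR-2 libraries and 5, 7 and 4 in the shAhR-1 libraries, against 3, 4 and 4 with pLKO. The shAhR-2 numbers lay above the pLKO numbers, as in 7.99% of loci and tiles in BE2C, and the shAhR-1 numbers overlapped them.

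BARD1 and SOX4 had fewer peaks with shAhR-1 than with pLKO in 1 line each in the full lists. BARD1 held 1, 1 and 2 peaks with BE2C shAhR-1 against 4, 3 and 5 with BE2C pLKO, without overlap, as in 3.98% of loci and tiles. SOX4 held 0, 2 and 2 with Kelly shAhR-1 against 4, 4 and 3 with Kelly pLKO, without overlap, as in 6.42%. At equal length both groups overlapped at both loci. Over both lines the differences of shAhR-1 from pLKO in the full lists did not pass the exact permutation test at any of the 5 loci, with adjusted p between 0.530 and 1.

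**Figure D4:**
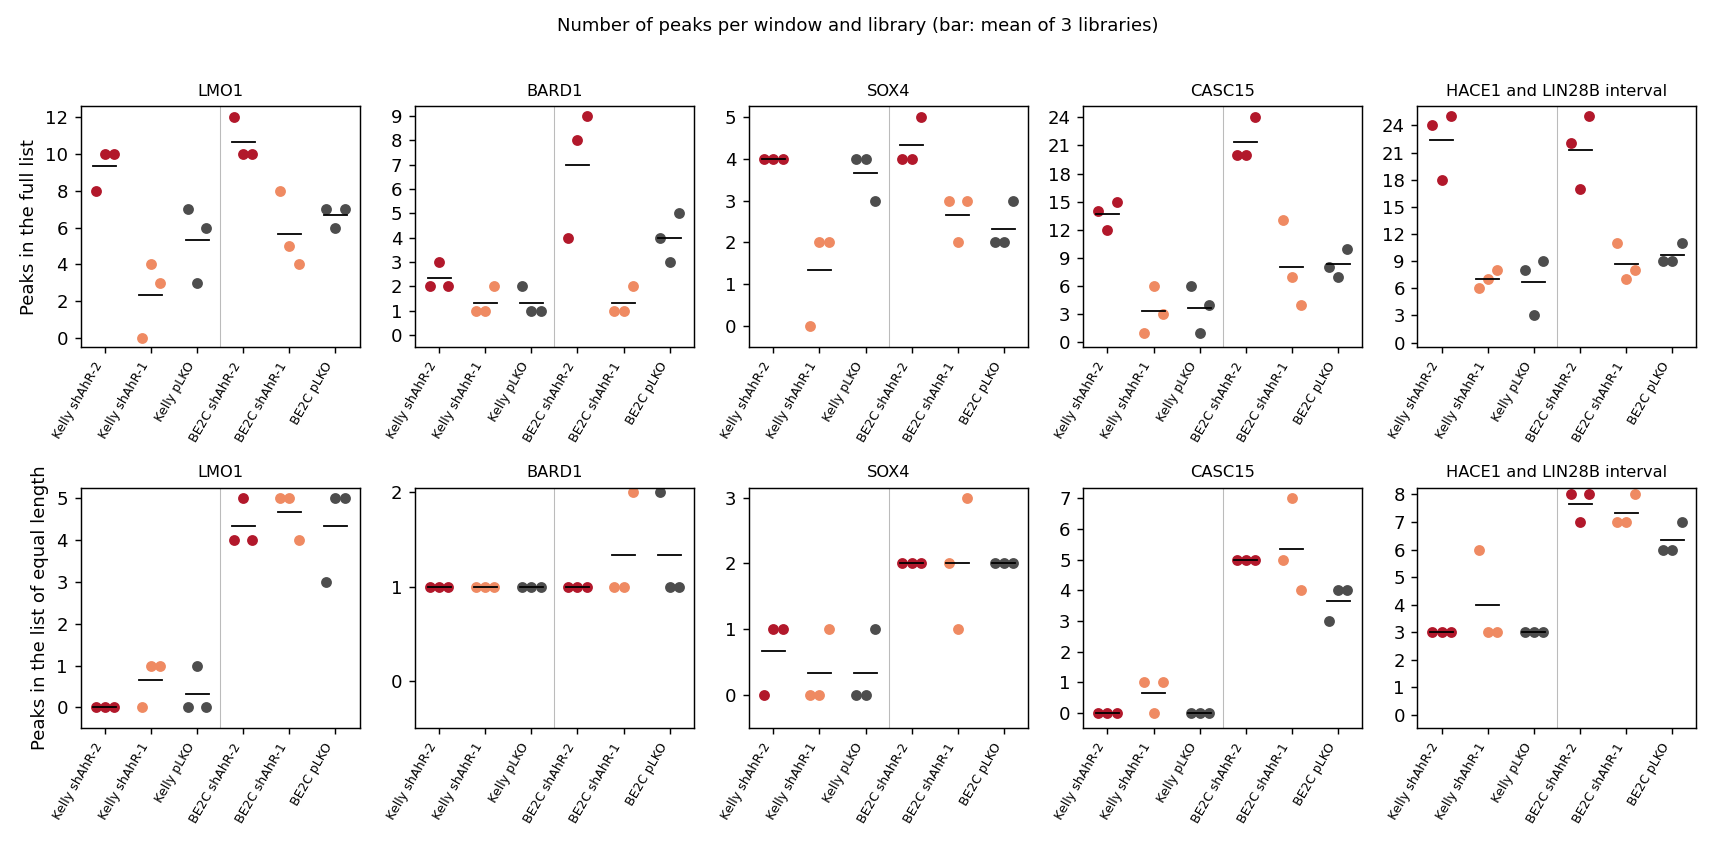
Number of peaks per window and library, in the full lists (upper row) and in the lists of equal length of each line (lower row), with a bar at the mean of 3 libraries. In the upper row the shAhR-2 libraries have the highest means at all 5 loci in both lines, while in the lower row the HACE1 and LIN28B interval has 3 peaks in each Kelly shAhR-2 and Kelly pLKO library.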

How the data were processed

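ATAC-seq was done on 18 libraries of Kelly and BE2C cells, from 50 K cells each with 30 min of transposition and 10 PCR cycles, per the labels' protocols. The submitters' processing notes name CASAVA 1.8.2, Trimmomatic 0.33, BWA 0.7.17, MACS2 2.1.0, deepTools 3.1.3 and the build hg19; settings, duplicate removal and any shift of read ends are not given in the sources here, and could move summits or change which peaks pass. The values were 1 peak list per library, not pooled. The authors deposited for each peak a score, a fold over local background (a linear ratio), and its −log10 p-value and −log10 q-value, the authors' own values, used here only within a list. Summit offsets were deposited in bases.

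Groups came from the titles. Only chromosomes 1 to 22 and X were used. Summit reads and background were solved from the fold and the −log10 p (fold of at least 1.5, pseudocount 1), and were whole within 0.05 reads for at least 99.98% of solved peaks in 17 libraries and for 96.8% in Kelly shAhR-1 replicate 1. Read depth itself was not used. Intervals are not given, since the lists hold no read totals.

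The tests were those described with the results, with a threshold of 0.05 on adjusted p. Peak numbers were tested over 400 arrangements of labels within lines, for which the smallest p is 0.005, with tiles of a mean of at least 1 peak. Alternatives were full lists, a −log10 q of at least 5, a 50% cover, a vote of 2 of 3 libraries, other windows, a pseudocount of 0.5, no filter on tiles, a replicate block and leaving out each library. Functions were tested on simulated data. Python 3.11.15, NumPy 2.4.6, pandas 2.3.3, SciPy 1.17.1 and Matplotlib 3.10.9 were used. Regions over gene starts, called or gained and lost regions, and regions in all 18 lists are named, and regions nearest to a call or frequent at LMO1, SOX4 and CASC15 were added after their values were seen. The members and lists were chosen with earlier results of these data known. Other risk genes and cell type markers were not analysed here for want of an annotation on hg19.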

Additional observations from a re-analysis of the deposited data

How the results depend on the processing

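Peak lists carry no value below the caller's threshold, and their length moved with the library, so the list length is the choice on which most counts turned; the cause was not tested. Between the lines 0 member regions were called under each single alternative setting, including those that left out 1 library at equal length (0 to 0). The replicate block is no check among these, since it could call no region. In full lists 1 of 111 was called without replicate 1 or 2 of Kelly shAhR-2, against 2365 of 143708 and 2227 of 142789 regions genome-wide. For the hairpins there were 10 member regions in Kelly and 36 in BE2C at equal length, and 74 and 96 in full lists. At a −log10 q of at least 5 there were 45 and 54. Shares of all regions, loci or tiles were not determined at that limit, by the vote, at 50% cover and in most runs without 1 library. Counts under those settings are therefore not read as results about the members. Regions changed with shAhR-2 in Kelly numbered 0 at equal length, 8 in full lists, 10 at a −log10 q of at least 5, 1 by a vote of 2 of 3 libraries, and 0 to 4 without 1 library (4 without replicate 1 of Kelly shAhR-1). With shAhR-1 in Kelly they numbered 0, 1, 1, 1 and 0 to 1 in the same order (1 without replicate 1 or 2 of Kelly shAhR-1). With both hairpins in Kelly they numbered 0, with 1 in full lists, 1 at the q limit and 0 to 1 without 1 library (1 without replicate 1 of Kelly shAhR-1). With shAhR-2 in BE2C they numbered 3, with 16 in full lists, 13 at the q limit, 7 by the vote (5 gained, 2 lost) and 3 to 5 without 1 library (5 without replicate 3 of BE2C pLKO). With shAhR-1 in BE2C they numbered 2, with 0 in full lists, 0 at the q limit, 0 at 50% cover and 1 to 3 without 1 library (1 without replicate 3 of BE2C shAhR-1). With both hairpins in BE2C they numbered 2, with 0, 0 and 0 under the same 3 settings, 5 by the vote (3 gained, 2 lost) and 1 to 3 without 1 library (1 without replicate 3 of BE2C shAhR-1). Loci with changed peak numbers with shAhR-2 numbered 0, with 3 in full lists, 3 at the q limit and 0 to 0 without 1 library. At equal length no locus could pass with all 18 libraries, so the counts of 0 are not read as stability. Differences in log2(number + 1) that changed sign were, with shAhR-2, LMO1 from −0.16 to 0.68 in full lists and 0.79 at the q limit, BARD1 from −0.10 to 0.58 in full lists, and SOX4 from 0.17 to −0.069 at the q limit. With shAhR-1 they were LMO1 from 0.22 to −0.70 and −0.92, CASC15 from 0.54 to −0.14 and −0.68, and the HACE1 and LIN28B interval from 0.23 to −0.081 at the q limit. Without 1 library, LMO1 with shAhR-2 ranged from −0.25 to 0.0098, SOX4 with shAhR-2 from −0.12 to 0.33 and SOX4 with shAhR-1 from −0.20 to 0.14. CASC15 with shAhR-1 was 0.16 without replicate 1 of Kelly shAhR-1 and 0.71 without replicate 2 (exact permutation p = 0.015, adjusted p = 0.580). Libraries with the same replicate number did not deviate together (correlations of −0.056 to 0.030). With a replicate block 0 regions and 0 loci were called at equal length. The smallest p-values that the block allows were too large to pass the adjustment there, so nothing is read from these counts.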
